A study of Homo sapiens with 6 samples.

Results

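This report describes 40 DNA repair and damage checkpoint genes in HaCaT keratinocytes, chosen by gene symbol as components of homologous recombination, the Fanconi anemia pathway, mismatch repair, base excision repair and the checkpoint kinases. They are 40 of the 21475 genes analysed and were chosen with earlier results of these data known. RNA was sequenced from 3 WT lines and 3 lines with a knockout (KO) of *FGFR2*, each giving 1 library, to learn how loss of this fibroblast growth factor receptor alters the keratinocyte transcriptome. HaCaT is a spontaneously immortalized, nontumorigenic human keratinocyte line. All 6 lines were grown in DMEM with 10% FBS, and none received a further treatment. The KO lines are clones obtained after delivery of Cas9 with a single guide RNA against *FGFR2*, so that each KO library represents a single clone; the WT lines of the study include the parental population as well as clones, the sequenced WT lines are described as clonally expanded, and which WT line each library represents is not used here. Expression is given as FPKM (fragments scaled to the length of the gene and the size of the library), and the values of different genes are therefore compared per length only.

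*FGFR2* itself was measured at 21.6, 39.7 and 15.0 FPKM in the WT libraries (replicates 1, 2 and 3, the order used throughout) and at 3.04, 2.26 and 4.31 FPKM in the KO libraries. The groups were separate, with a log2 fold change of -2.73 (SE 0.36, n = 3 against 3), but the adjusted p of 0.261 (limma, Benjamini-Hochberg) missed the threshold of 0.05, as it did for every other gene. The study itself used DESeq2 and reported differentially expressed genes at an FDR of at most 0.05, with *FGFR2* strongly lower. The limma fit on FPKM used here thus gave a different result, and the reason was not tested. The libraries were estimated to hold 67100000 to 87600000 fragments, and mitochondrial genes took between 11.9% (KO replicate 3) and 27.6% (WT replicate 1) of the summed FPKM. The 14 keratinocyte markers were all present at 1 FPKM or more in every library, whereas 5 of 8 fibroblast, 4 of 6 melanocyte, 4 of 6 immune and 3 of 5 endothelial markers lay under 0.5 FPKM in every library. The summed fibroblast markers ranged from 7.99 to 33.2 FPKM in WT and from 6.92 to 12.6 FPKM in KO, and the melanocyte markers from 3.06 to 5.58 FPKM in WT and from 1.24 to 4.86 FPKM in KO. The summed immune markers (12.1 to 21.7 FPKM in WT, 4.55 to 11.3 FPKM in KO) and endothelial markers (18.1 to 27.2 FPKM in WT, 5.82 to 17.5 FPKM in KO) were lower in all KO libraries than in all WT libraries. The part of these markers in the results was not tested.

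Cells repair a DNA double-strand break without loss of sequence by homologous recombination: the break ends are resected, the BRCA1, PALB2 and BRCA2 proteins load a recombinase on the exposed strand, and the sister chromatid serves as template. The Fanconi anemia proteins unhook interstrand crosslinks and hand the break to the same machinery, while mismatch repair and base excision repair correct mispaired and damaged bases. The kinases ATM and ATR sense breaks and stalled forks and signal through CHEK2 and CHEK1 to delay the cell cycle. Since a sister chromatid exists only after replication, many of these genes are transcribed mainly in S phase of cycling cells.

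Most of these genes were higher in the KO lines. The log2 fold change was above 0 for 38 of the 40 genes and for 7420 of the 12241 genes tested. Its median was 0.65 for the 40 genes and 0.09 over all genes tested. All 40 passed the filter of a mean of at least 0.5 FPKM. None of the 40 passed the adjusted threshold (adjusted p of at most 0.05 and absolute log2 fold change of at least 0.5), and neither did any other gene, so that the background rate was 0% and the smallest adjusted p of the whole table was 0.261 (limma). With the same minimum change and p of at most 0.05 before adjustment (the unadjusted threshold), 25 of the 40 genes (62.5%) were higher and 0 were lower in KO. Among all genes tested, 10.2% were higher and 2.33% were lower by this rule. The adjusted p of these 25 genes lay between 0.261 and 0.295. The groups were separate, with the lowest KO value above the highest WT value, in 25 of the 40 genes (62.5%) and in 18.3% of the tested genes. The opposite order was found in 0 of the 40 genes and in 5.77% of the tested genes. The 2 sets of 25 had 21 genes in common. Since the 40 genes were chosen with earlier results of these data known, these shares are description and not a test. For a single gene, an exact two-sided permutation test with 3 against 3 libraries cannot give a p below 0.1. In RNA from whole cultures, more cells that express a gene and more RNA per cell cannot be told apart.

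**Figure D1:**
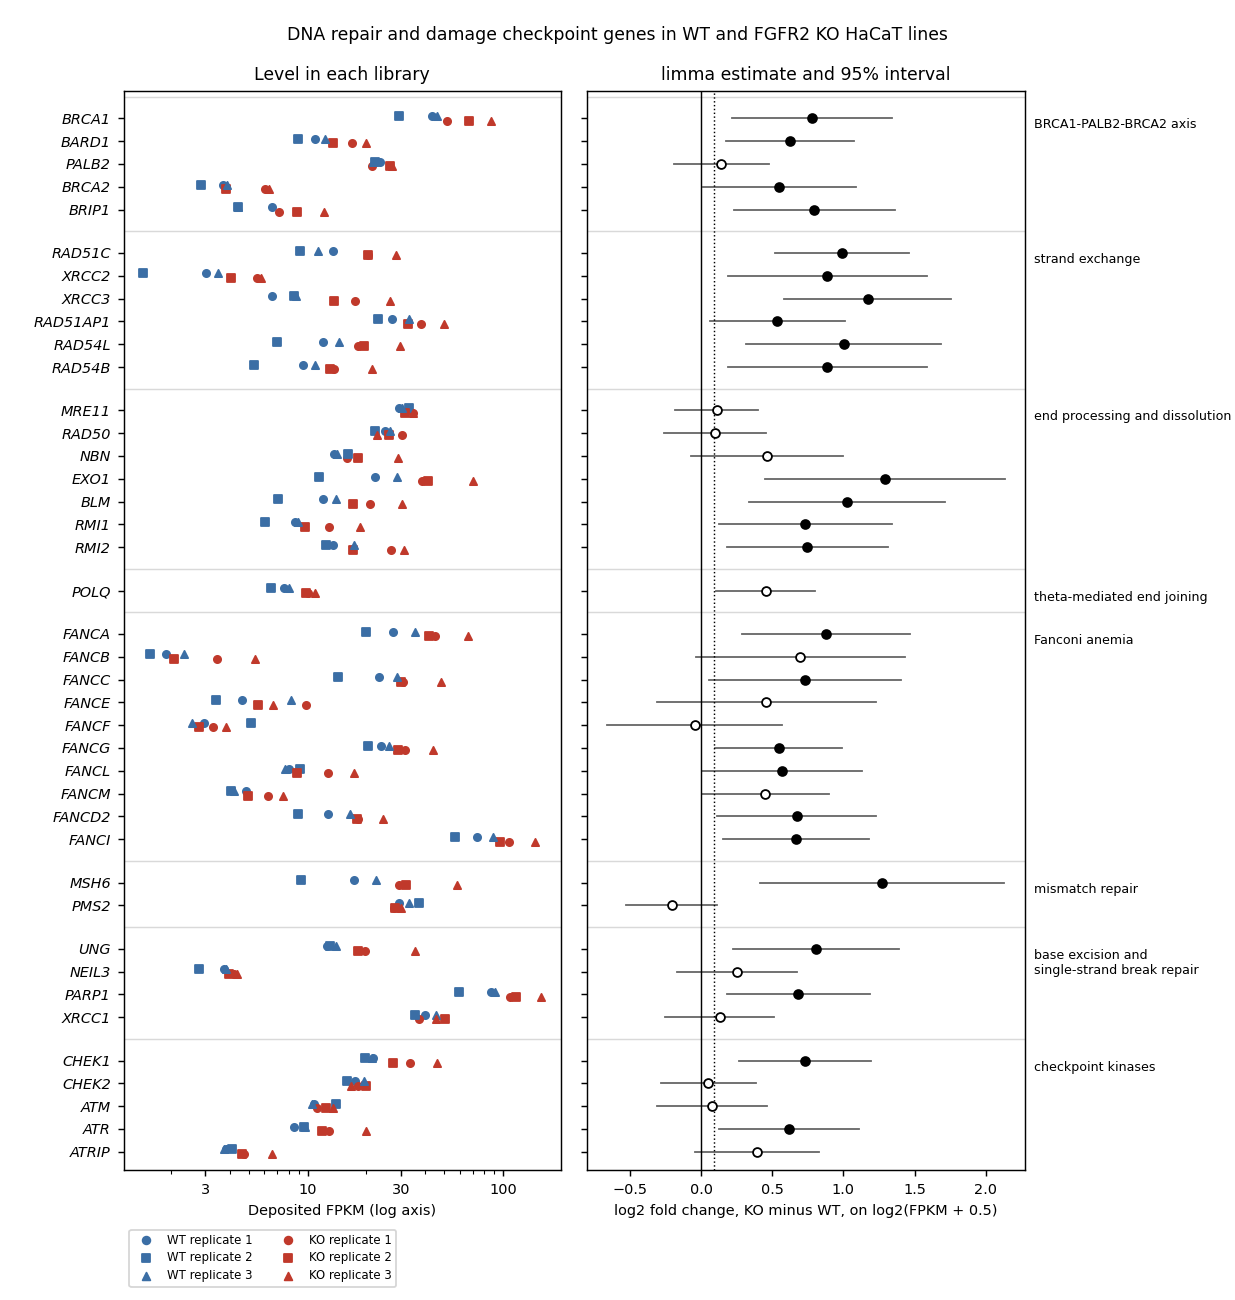
Left, deposited FPKM of the 40 genes (log axis) in the 3 WT libraries (blue) and the 3 KO libraries (red), grouped by role. Right, log2 fold change of KO against WT with its 95% interval from limma (n = 3 libraries per group); filled circles mark the 25 genes past the unadjusted threshold, and the dotted line is the median of all 12241 tested genes, 0.09. Estimates ran from -0.21 for *PMS2* to 1.29 for *EXO1*, and 38 of 40 lay above 0, as did 7420 of the 12241 tested genes.

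The size of the difference depended on 2 libraries. WT replicate 2 had the lowest of the 6 values for 29 of the 40 genes (26.1% of all tested genes), and KO replicate 3 had the highest for 32 of the 40 (38.7% of all tested genes). Without WT replicate 2, 15 of the 40 genes were past the unadjusted threshold and higher in KO, against 8% of all genes tested. Without KO replicate 3 it was 12 of the 40, against 4.4% of all genes. When both were left out, 6 genes passed it (*BLM*, *EXO1*, *MSH6*, *RAD51C*, *UNG* and *XRCC3*), against 4.44% of all genes, and the median log2 fold change was 0.33. In this smaller comparison of 2 against 2 libraries, where separation is easier to reach, the groups were separate with KO above WT in 29 of the 40 genes and in 30.4% of all genes tested. Scaling the libraries to their median ratio lowered the median log2 fold change over all genes from 0.09 to -0.02. The share of higher genes among those past the unadjusted threshold fell from 81.4% to 60.1%. Quantile normalization gave a share of 61.5% and scaling to nuclear genes 69.9%. In the same order, 20, 19 and 20 of the 40 genes were past the unadjusted threshold and higher in KO. Among the 12241 genes tested, it was 785, 803 and 930. The median log2 fold changes of the 40 genes were 0.53, 0.54 and 0.57. In a fit with library weights, in which WT replicate 1 carried 89.7% of the WT weight, 15 of the 40 genes and 11.4% of all genes passed the adjusted threshold. The median of the 40 genes exceeded that of all genes by 0.56 on the log2 scale; the distance was 0.40 with library weights, 0.39 without WT replicate 2, 0.42 without KO replicate 3 and 0.24 without both.

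The promoters of the genes were inspected for the sequence bound by E2F factors, which drive transcription at the start of S phase. The search covered 250 bases before to 50 bases after the RefSeq start sites (GRCh38.p14) for TTTCCCGC, TTTGGCGC, TTTCGCGC and TTTGCCGC on both strands. At least 1 of these words was present in 9 of the 36 genes with a window (25%), compared with 6.89% of 9809 tested genes and 3.99% of all 27305 genes with a window. The 9 genes are *EXO1*, *FANCA*, *FANCC*, *FANCD2*, *MSH6*, *PMS2*, *RMI1*, *UNG* and *XRCC2*. The following 28-base stretches, in the direction of transcription and with the matching word in capitals, are shown for the 2 genes with the largest differences, for 3 further genes that passed the unadjusted threshold in other pathways, and for *PMS2*, which holds the word but was not higher in KO.
EXO1: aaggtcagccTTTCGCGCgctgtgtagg
MSH6: tccccccagaTTTCCCGCcagcaggagc
FANCD2: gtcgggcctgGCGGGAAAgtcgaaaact
FANCC: tcgtcggaatTTTCCCGCgacgccgcgg
UNG: agggaggtttTTTGCCGCgaaaagacca
PMS2: gggaagtattTTTGCCGCcccgcccgga
They lie at chr1:241848198-241848225 (plus strand), chr2:47783138-47783165 (plus), chr3:10026425-10026452 (plus), chr9:95317738-95317765 (minus), chr12:109098099-109098126 (plus) and chr7:6009132-6009159 (minus), in the order given. In *EXO1* and *MSH6* the word begins at bases 5 and 4 of the transcript, and in *FANCD2* it spans the start site. Among the 22 genes with a window that passed the unadjusted threshold, 8 held the word, against 9 of all 36. The share among all tested genes past this threshold is not given here, and a link to the difference was not tested.

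Other promoter words were closer to their background. The CCAAT box (CCAAT) was present in 58.3% of the 36 genes and 43.7% of tested genes, and the GC box (GGGCGG) in 83.3% and 77.4%. The cell cycle homology region (TTTGAA), known from genes of G2 and mitosis, was present in 19.4% and 13.5%, and the NRF1 site (GCATGCGC) in 8.33% and 6.43%. These counts describe letters in the windows and were not tested. Promoters with few or no matches were also found among the genes with the larger differences: *RAD51C* and *XRCC3* hold no E2F word in these windows.

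In the BRCA1-PALB2-BRCA2 axis, which recruits the recombinase to resected breaks, 4 of 5 genes passed the unadjusted threshold and 3 had separate groups. For this and the following subgroups, the shares over all genes tested were 10.2% past the threshold and higher, and 18.3% separate with KO above. *BRCA1* (ENSG00000012048; chromosome 17, 43044295 to 43170245, GRCh38), the E3 ligase and scaffold of the pathway, was measured at 43.1, 29.4 and 46.1 FPKM in WT and at 51.8, 66.6 and 87.2 FPKM in KO. Its mean was 1.73-fold higher in KO (log2 fold change 0.78, SE 0.24). *BARD1*, its obligate ring-finger partner, had 10.9, 8.93 and 12.3 FPKM in WT and 17.0, 13.6 and 20.0 FPKM in KO (log2 fold change 0.62, SE 0.19). The helicase gene *BRIP1* (ENSG00000136492; chromosome 17, 61679139 to 61863559), with the lowest p of this subgroup, had 6.61, 4.42 and 4.43 FPKM in WT and 7.12, 8.89 and 12.1 FPKM in KO (log2 fold change 0.80, SE 0.24). For each of these 3 genes the lowest KO value lay above the highest WT value. *BRCA2*, the loader of the recombinase, had a low level of 2.87 to 3.85 FPKM in WT and 3.82 to 6.33 FPKM in KO, and the lowest KO value fell within the WT range (log2 fold change 0.55, SE 0.23). *PALB2*, the bridge between BRCA1 and BRCA2, did not separate the groups, with 21.7 to 23.6 FPKM in WT and 21.3 to 27.1 FPKM in KO and a 95% interval of the log2 fold change from -0.19 to 0.47.

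The 6 strand exchange genes all passed the unadjusted threshold, with a median log2 fold change of 0.94. *RAD51C* (ENSG00000108384; chromosome 17, 58692573 to 58735611), a paralog of the recombinase, had the lowest p of the 40 genes. It was measured at 13.5, 9.10 and 11.4 FPKM in WT and at 20.4, 20.4 and 28.3 FPKM in KO, a 2.03-fold difference of the means (log2 fold change 0.99, SE 0.20, 95% interval 0.52 to 1.46). Its partner *XRCC3* had 6.57, 8.55 and 8.77 FPKM in WT and 17.5, 13.6 and 26.4 FPKM in KO (2.40-fold, log2 fold change 1.17, SE 0.25). The third paralog, *XRCC2*, was the least abundant of the strand exchange genes, with 3.04, 1.45 and 3.47 FPKM in WT and 5.53, 4.05 and 5.82 FPKM in KO (log2 fold change 0.89, SE 0.30). In all 3 paralogs the groups did not overlap. *RAD54L*, a DNA translocase that remodels the recombinase filament, had 12.0, 7.01 and 14.4 FPKM in WT and 18.2, 19.4 and 29.7 FPKM in KO (log2 fold change 1.0, SE 0.29). The related *RAD54B* ranged from 5.32 to 10.9 FPKM in WT and from 13.0 to 21.5 FPKM in KO (log2 fold change 0.89, SE 0.30). *RAD51AP1*, which stimulates strand invasion, had a smaller difference (22.8 to 32.9 FPKM in WT, 32.7 to 49.9 FPKM in KO, log2 fold change 0.53, SE 0.20), and its groups touched, since KO replicate 2 lay just under WT replicate 3.

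Of the 7 genes of end processing and of the resolution of recombination intermediates, 4 passed the unadjusted threshold and 3 had separate groups. *EXO1* (ENSG00000174371; chromosome 1, 241847967 to 241895148), the exonuclease of long-range resection that also serves mismatch repair, had the largest difference of the 40 genes. It was measured at 22.0, 11.4 and 28.7 FPKM in WT and at 38.3, 41.4 and 70.6 FPKM in KO, so that the groups were separate (2.42-fold, log2 fold change 1.29, SE 0.36). *BLM*, the helicase of the dissolution complex, had 12.0, 7.08 and 14.0 FPKM in WT and 21.0, 17.1 and 30.3 FPKM in KO (log2 fold change 1.03, SE 0.30). Its complex partners *RMI1* (6.04 to 8.96 FPKM in WT, 9.71 to 18.6 FPKM in KO) and *RMI2* (12.4 to 17.3 FPKM in WT, 17.1 to 31.3 FPKM in KO) had log2 fold changes of 0.73 (SE 0.26) and 0.75 (SE 0.24). Only in *RMI2* among these 4 genes did the groups overlap, through KO replicate 2.

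The MRE11-RAD50-NBN complex, which binds the break first and starts resection, had no gene past the unadjusted threshold. *MRE11* was at 29.5, 33.2 and 30.3 FPKM in WT and 34.6, 31.4 and 34.5 FPKM in KO, and *RAD50* at 25.0, 22.1 and 26.5 FPKM in WT and 30.3, 26.0 and 22.8 FPKM in KO. The 95% intervals of their log2 fold changes were -0.18 to 0.40 and -0.26 to 0.46, and the sign of both estimates turned under at least 1 other scaling or left-out library. *NBN* had 13.7, 16.2 and 14.1 FPKM in WT and 15.8, 18.2 and 28.9 FPKM in KO. KO replicates 2 and 3 lay above all WT libraries, and the interval of the log2 fold change, -0.07 to 0.99, included 0. *POLQ* (ENSG00000051341; chromosome 3, 121431431 to 121545988), the polymerase of theta-mediated end joining, had 7.56, 6.53 and 8.03 FPKM in WT and 10.0, 9.81 and 10.9 FPKM in KO. Its groups were separate and its spread was small, but with a log2 fold change of 0.45 (SE 0.15) it remained under the minimum change of 0.5.

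Of the 10 Fanconi anemia genes, 6 passed the unadjusted threshold and 6 had separate groups. The members of the core complex, the ubiquitin ligase that is recruited to crosslinked DNA, were unequal. *FANCA* (ENSG00000187741; chromosome 16, 89726683 to 89816977) had 27.5, 19.9 and 35.6 FPKM in WT and 44.8, 42.0 and 65.8 FPKM in KO (log2 fold change 0.88, SE 0.25), the lowest p of this subgroup. *FANCC* had 23.3, 14.3 and 28.6 FPKM in WT and 30.9, 30.1 and 48.4 FPKM in KO (log2 fold change 0.73, SE 0.29). *FANCG* ranged from 20.3 to 26.2 FPKM in WT and from 29.1 to 44.0 FPKM in KO (log2 fold change 0.54, SE 0.19). In these 3 genes no KO value reached into the WT range. *FANCL*, the catalytic subunit, passed the threshold only narrowly (7.69 to 9.16 FPKM in WT, 8.80 to 17.3 FPKM in KO, log2 fold change 0.57, SE 0.24), and KO replicate 2 lay within its WT range. With the replicate number as a block *FANCL* no longer passed and *FANCB* did (log2 fold change 0.70). The remaining core genes did not pass without the block. *FANCB* had 1.57 to 2.33 FPKM in WT and 2.07 to 5.40 FPKM in KO, *FANCE* had 3.39 to 8.21 FPKM in WT and 5.57 to 9.77 FPKM in KO, and *FANCF* had 2.56 to 5.11 FPKM in WT and 2.80 to 3.82 FPKM in KO. The estimate for *FANCF*, -0.04, was one of only 2 below 0 and changed sign when WT replicate 2 was left out.

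Downstream of the core complex, the 2 substrates that it ubiquitinates differed in parallel. *FANCD2* had 12.8, 8.92 and 16.4 FPKM in WT and 18.2, 17.9 and 24.4 FPKM in KO (log2 fold change 0.67, SE 0.24). *FANCI* was far more abundant per length, with 73.8, 56.8 and 88.7 FPKM in WT and 107, 96.1 and 146 FPKM in KO, and had the same log2 fold change of 0.67 (SE 0.22). *FANCM*, the translocase that anchors the core complex to DNA, had separate groups (4.08 to 4.83 FPKM in WT, 4.98 to 7.47 FPKM in KO), but its log2 fold change of 0.45 was under the minimum.

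The 2 mismatch repair genes went different ways. *MSH6* (ENSG00000116062; chromosome 2, 47695530 to 47810063), a subunit of the heterodimer that recognizes base mismatches, was measured at 17.3, 9.28 and 22.5 FPKM in WT and at 29.4, 31.7 and 58.0 FPKM in KO (2.43-fold, log2 fold change 1.27, SE 0.37). The groups were separate, and the highest level, in KO replicate 3, was far above the other KO lines. *PMS2*, a subunit of the endonuclease that acts after recognition, had 29.4, 37.2 and 33.0 FPKM in WT and 27.7, 28.2 and 29.9 FPKM in KO. Its groups overlapped by a single library and the interval of its log2 fold change, -0.53 to 0.11, included 0. Under median-of-ratios scaling, quantile normalization and scaling to nuclear genes, all KO values of *PMS2* lay below all WT values. Its estimate is uncertain, since the annotation lists 15 pseudogenes and copies named after *PMS2*, between which fragments may be divided.

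In base excision and single-strand break repair, 2 of 4 genes passed the unadjusted threshold. *UNG* (ENSG00000076248; chromosome 12, 109097597 to 109126725), the glycosylase that removes uracil from DNA, had closely spaced WT values of 12.6, 13.0 and 14.0 FPKM and KO values of 19.8, 18.2 and 35.4 FPKM (1.86-fold, log2 fold change 0.81, SE 0.25). *PARP1*, the abundant sensor of strand breaks, had 87.2, 59.7 and 90.6 FPKM in WT and 108, 116 and 157 FPKM in KO (log2 fold change 0.68, SE 0.22). Both genes had separate groups, as did *NEIL3*, a glycosylase for oxidized bases, although with a smaller distance (2.80 to 3.81 FPKM in WT, 3.95 to 4.36 FPKM in KO). *XRCC1*, the scaffold of single-strand break repair, had 35.4 to 45.5 FPKM in WT and 37.1 to 50.2 FPKM in KO, and its interval of -0.25 to 0.51 included 0.

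Among the checkpoint kinases and their partner ATRIP, the ATR branch and the ATM branch had different values. *CHEK1* (ENSG00000149554; chromosome 11, 125625163 to 125676255), the kinase activated by ATR, was measured at 21.6, 19.6 and 21.3 FPKM in WT and at 33.3, 27.4 and 46.2 FPKM in KO (log2 fold change 0.73, SE 0.20). *ATR* had 8.52, 9.58 and 9.76 FPKM in WT and 12.9, 11.8 and 19.8 FPKM in KO (log2 fold change 0.62, SE 0.21). *ATRIP*, which brings ATR to single-stranded DNA, had 3.84, 4.09 and 3.75 FPKM in WT and 4.75, 4.62 and 6.61 FPKM in KO. All 3 genes had separate groups, but *ATRIP* did not pass the unadjusted threshold (95% interval -0.04 to 0.83). In the ATM branch, *ATM* had 10.8, 14.0 and 10.5 FPKM in WT and 11.1, 12.5 and 13.4 FPKM in KO, and its target *CHEK2* had 17.5, 15.9 and 19.5 FPKM in WT and 18.1, 19.9 and 16.7 FPKM in KO. For both genes the groups overlapped widely, the estimates of 0.07 and 0.05 turned negative under median-of-ratios scaling, and the intervals ran from -0.31 to 0.46 and from -0.29 to 0.38. Whether the branches differed from each other was not tested.

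Some of these genes share transcribed sequence with a neighbour, and the way such fragments were assigned cannot be read from the values. *CHEK1* and *STT3A*, *ATRIP* and *TREX1*, and *RAD54B* and *FSBP* overlap in exons on the same strand, and *FANCG*, *RAD50* and *XRCC1* overlap in this way with protein-coding entries that have no symbol. *FANCA*, *FANCI*, *MSH6*, *FANCC* and *XRCC3* overlap in exons with genes of the opposite strand (*ZNF276*, *POLG*, *FBXO11*, *AOPEP* and *KLC1*). Protein-coding genes of the opposite strand also overlap *ATM*, *CHEK2*, *FANCB*, *FANCD2*, *FANCF*, *FANCL*, *NBN* and *RAD54L*. *CHEK2* has 7 annotated pseudogenes, and pseudogenes are also annotated for *BRCA1*, *FANCD2*, *MRE11*, *PARP1*, *RAD51AP1* and *UNG*. The values of these genes are uncertain to that extent. Counting error was estimated from the median length of the annotated transcripts of each gene and the estimated depth. By this estimate the lowest-covered value was *RAD54B* in WT replicate 2, with about 219 fragments and a counting error of 6.75%. The rank depends on the length used: in this library *XRCC2* had 1.45 FPKM and *RAD54B* 5.32 FPKM.

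A further 99 repair genes outside the 40 were compared as lists by pathway. Of these, 26 were past the unadjusted threshold and higher in KO, 1 was lower, and the median log2 fold change was 0.23. Among all genes tested, 10.2% were higher and 2.33% were lower by this rule, and the median was 0.09. The lists closest to the described genes were the other mismatch repair genes (3 of 5 higher, median 0.51) and the other Fanconi anemia genes (4 of 11 higher, median 0.46), among them *UBE2T*, the ubiquitin-conjugating enzyme that works with FANCL, at 28.6 ± 5.02 FPKM in WT and 45.6 ± 9.99 FPKM in KO (SD, n = 3). Of the other base excision repair genes 4 of 16 were higher (median 0.27), of the other checkpoint genes 3 of 15 (median 0.28) and of the other homologous recombination genes 7 of 23 (median 0.22). The checkpoint genes included *TIMELESS* and *TIPIN*, the fork protection pair, with 17.2 ± 2.76 and 13.8 ± 4.38 FPKM in WT and 29.9 ± 6.58 and 28.7 ± 11.2 FPKM in KO. The other 2 pathways had medians near that of all genes. Nucleotide excision repair, which removes bulky and ultraviolet-induced lesions, had 1 of 19 genes higher and a median of 0.13. Non-homologous end joining had 4 of 10 higher, 1 lower and a median of 0.08: *PRKDC*, *XRCC5* and *XRCC6*, which encode the DNA-dependent protein kinase, and *PAXX* were higher, whereas *DCLRE1C*, the hairpin-opening nuclease Artemis, was lower, with 15.8, 16.2 and 11.7 FPKM in WT and 7.97, 9.49 and 8.45 FPKM in KO (log2 fold change -0.71, SE 0.17). These genes had adjusted p values of at least 0.261 (limma).

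Genes of S phase replication and of G2 and mitosis were placed beside the repair genes in each library. Relative to the WT mean, the median of the 40 genes was 0.04, -0.21 and 0.15 on the log2 scale in the WT libraries and 0.54, 0.33 and 1.01 in the KO libraries. The 33 S phase genes had medians of 0.08, -0.41 and 0.36 in WT and 0.76, 0.69 and 1.40 in KO, and 32 of them passed the unadjusted threshold. The order of the WT libraries was the same in both lists, and KO replicate 3 was the highest library in each. The 30 G2 and mitosis genes had medians of 0.16, -0.31 and 0.20 in WT and 0.01, -0.04 and -0.06 in KO, and 0 of them passed. Among all genes tested, 10.2% passed and were higher in KO, and 2.33% passed and were lower. WT replicate 2 was the lowest library in each of these 3 lists, and the order of the WT libraries was the same in all 3. The keratinocyte markers had this WT order too, with medians of 0.03, -0.22 and 0.20. All KO libraries stood above all WT libraries in the repair and S phase lists and not in the G2 and mitosis list. The part of the cell cycle distribution in the values of the repair genes was not tested.

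**Figure D2:**
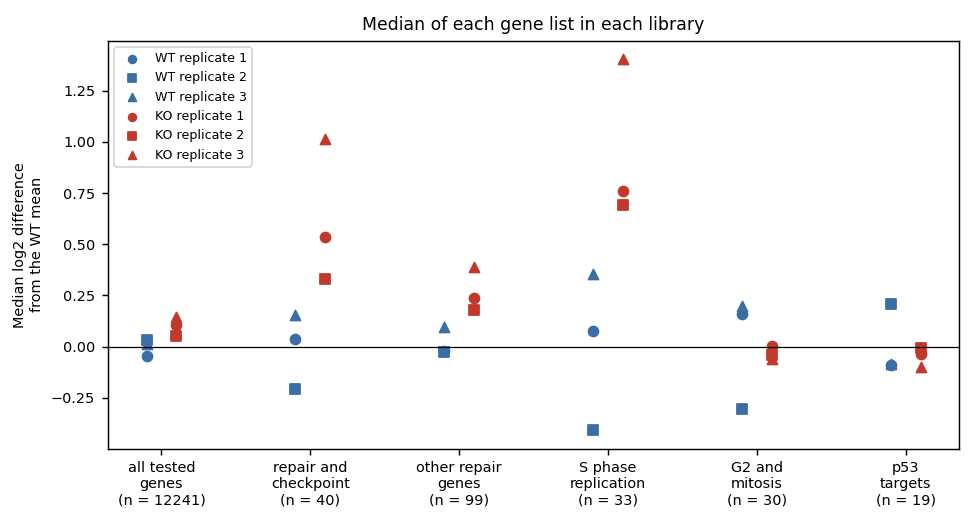
Median log2 difference from the WT mean of each gene list (vertical axis, on log2(FPKM + 0.5)) in each of the 6 libraries; n is the number of genes tested. The 40 repair and checkpoint genes lay between 0.33 and 1.01 in KO, the 33 S phase genes between 0.69 and 1.40, and the 30 G2 and mitosis genes between -0.06 and 0.01.

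Ratios of genes within a library were computed for 6 pairs of complex partners and for the 40 genes against the cell cycle lists. The ratios of the pairs do not move with the scaling of libraries. Those to the lists use medians of log2(FPKM + 0.5) and can move with it through the added 0.5. For *FANCI* to *FANCD2*, the log2 ratio was 2.55 ± 0.12 in WT and 2.52 ± 0.08 in KO (SD, n = 3; exact permutation p = 0.9, two-sided). For *RAD50* to *MRE11* it was -0.34 ± 0.21 in WT and -0.35 ± 0.22 in KO (exact p = 0.8). *BARD1* to *BRCA1* was at -1.87 ± 0.14 in WT and -2.01 ± 0.36 in KO (exact p = 0.5), and *RMI2* to *BLM* at 0.43 ± 0.34 and 0.13 ± 0.19 (exact p = 0.3). None of these pairs separated the groups. The ratio of *NBN* to *MRE11* stood apart in KO replicate 3, with -0.25 compared with -1.13 to -0.78 in the other KO libraries and -1.11 to -1.04 in WT (exact p = 0.4). *ATRIP* to *ATR* was at -1.25 ± 0.12 in WT and -1.46 ± 0.12 in KO (exact p = 0.2). The median of the 40 genes relative to the S phase list was -1.23 ± 0.13 in WT and -1.37 ± 0.05 in KO (exact p = 0.2), whereas relative to the G2 and mitosis list it was -2.84 ± 0.11 in WT and -2.26 ± 0.36 in KO, with separate groups and an exact p of 0.1, the smallest that 3 against 3 can give. Adjusted over the 8 ratios, the p values ranged from 0.533 to 0.9. The 40 genes and the cell cycle lists were chosen with earlier results of these data known. The exact p values of the ratios to these lists therefore cannot serve as tests, and their values are description only.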

How the data were processed

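The authors trimmed reads from poly(A)-selected, stranded libraries with fastp 0.20.0 and pseudoaligned them with kallisto 0.46.1 to GRCh38.p13; the values they deposited are FPKM per gene, whose calculation is not given in the sources used here. Of 21493 listed genes, 18 Y copies of pseudoautosomal genes, equal to their X copies, were left out. Symbols and positions came from GENCODE (GRCh38), promoter windows from RefSeq (GRCh38.p14); 36 of the 40 genes had a window. Depth was estimated from the steps of low values; since only 70.5% to 76.6% of these were whole within 0.05 fragments, counts were not rebuilt.

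KO was compared with WT by limma 3.58.1 (R 4.3.3) on log2(FPKM + 0.5), with a mean-variance trend, for the 12241 genes averaging 0.5 FPKM or more, with Benjamini-Hochberg adjustment over all of them. A fold change on this scale understates differences of low genes. P-values measure the spread between cell lines, each sequenced once. The 40 genes and the lists were chosen with earlier results of these data known. Statistics are given for *FGFR2*, for members past the unadjusted threshold and for the member with the lowest p of each subgroup; of the other repair genes, those past the unadjusted threshold may be named.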

Additional observations from a re-analysis of the deposited data

How the results depend on the processing

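The 40 genes were compared again under 19 alternatives and 1 added after the data had been seen (WT replicate 2 and KO replicate 3 both left out). Library weights gave 1396 called genes, 15 of them among the 40, with WT replicate 1 carrying 89.7% of the WT weight; no other alternative called a gene. The number of the 40 past the unadjusted threshold and higher in KO ranged from 12 to 27 on leaving out single libraries and was 6 with both libraries left out, where the median log2 fold change was 0.33. This number was 20 under median-of-ratios scaling, 19 under quantile normalization and 20 with scaling to nuclear genes. The number with all KO values below all WT values was 1 (*PMS2*) under median-of-ratios scaling, quantile normalization and scaling to nuclear genes, from 0 to 1 without single libraries, and 1 without both. The replicate number as a block left 25 of the 40 past the unadjusted threshold and 0 called, with *FANCB* gained and *FANCL* lost. The smallest adjusted p of the 40 was 0.097 with the block and 0.261 without it (limma). Over all genes tested, deviations of equally numbered WT and KO libraries from their group means had correlations of -0.21, 0.22 and 0.05. For the 40 genes, replicate 2 had the lowest and replicate 3 the highest median within both groups. The labels do not say whether equal numbers mark paired samples. Signs turned in estimates near 0. Under median-of-ratios scaling they were -0.0030 for *MRE11*, -0.016 for *RAD50*, -0.062 for *CHEK2* and -0.035 for *ATM*; under quantile normalization -0.018 for *RAD50*, -0.062 for *CHEK2* and -0.033 for *ATM*; with nuclear scaling -0.029 for *CHEK2* and -0.0025 for *ATM*. Library weights gave -0.0076 for *PALB2* and 0.106 for *FANCF*, and removal of chromosome medians gave 0.010 for *FANCF* and -0.015 for *CHEK2*. *FANCF* was at 0.218 and *CHEK2* at -0.022 without WT replicate 2, *FANCF* at 0.054 and *CHEK2* at -0.013 without KO replicate 2, *RAD50* at -0.0081 without KO replicate 1, and *FANCF* at 0.122 without both libraries. Without single libraries *RAD50* ranged up to 0.20, *FANCF* from -0.22 to 0.22 and *CHEK2* up to 0.12. The cause of these shifts was not tested.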

Other observations

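Of 19 genes that p53 is known to activate after DNA damage, 0 were past the unadjusted threshold and higher in KO, 3 were lower, and the median log2 fold change was -0.07. Over all genes tested, 10.2% were higher and 2.33% were lower by this rule. The 3 lower genes, named here after their values were seen, were *CDKN1A*, which encodes the cell cycle inhibitor p21, with 108 ± 3.87 FPKM in WT and 67.7 ± 28.4 FPKM in KO (SD, n = 3), the antiproliferative gene *BTG2*, with 123 ± 37.8 and 63.7 ± 29.6 FPKM, and *TP53INP1*, with 8.90 ± 3.25 and 2.79 ± 1.72 FPKM. Their adjusted p values lay between 0.261 and 0.280 (limma). *MDM2*, the ubiquitin ligase of p53 and likewise named afterwards, was at 31.1 ± 4.63 FPKM in WT and 31.4 ± 1.35 FPKM in KO.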
